A study of Brassica rapa with 8 samples.

Results

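A set of 182 genes stood higher in every library of *B. rapa* seedlings treated with IAA-Ala, IPA-Ala or IBA-Ala than in both libraries of untreated seedlings. The level of a gene is given as CPM, its counts relative to all counts on genes in that library (scaled to 1000000). Members were selected on these levels. A gene belongs to the set if it had at least 20 counts in each of the 6 treated libraries and if its lowest treated CPM was at least 2 times the higher of the 2 control values. Of the 46250 genes listed, 22191 had at least 20 counts in each treated library, and 186 met the rule. The auxin genes *YDK1*, *IAA2*, *IAA29* and *YUC3* were among these 186 and were left out, because the study names them in its figures on auxin metabolism. The rule itself used the difference from the control, so that this difference is described by levels and ratios and was not tested. It also used the lowest treated library, which leaves out genes that stayed low after any conjugate. Shares of the set and of all genes that concern differences between conjugates are therefore descriptive.

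The seedlings were Chinese cabbage, cultivar Cantonner Witkrop, and were 1 day old when they were moved to agar plates. The plates held 0.01 mM of IAA-Ala, IPA-Ala or IBA-Ala (the L-alanine conjugates of indole-3-acetic, indole-3-propionic and indole-3-butyric acid), or no hormone for the control. According to the protocol the plates were kept in continuous light at 22 °C for 24 h, whereas the sample titles give 3 h, and this difference could not be resolved. RNA came from 100 mg of whole seedlings, with 2 biological replicates in each of the 4 groups, so that fewer cells of a type and less RNA per cell cannot be told apart.

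Plants keep part of their auxin bound to amino acids, and amidohydrolases can split these amides and set the hormone free. Free auxin is perceived in *Arabidopsis* by TIR1/AFB receptors, which mark Aux/IAA repressors for degradation and so release the transcription of early response genes, among them *Aux/IAA*, *GH3* and *SAUR* genes. The auxins of the conjugates used here differ in the length of the side chain that carries the alanine, which is an acetyl, a propionyl or a butyryl chain. The files list the genes by identifier only, and 0 of them were found in a RefSeq table of gene names. The members are therefore given by identifier and chromosome label, with no function. For the same reason the seedling tissue could not be checked against marker genes.

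Each library held between 16616214 and 19521990 counts on genes. Summed over the 182 genes, the level was 3208 and 3451 CPM in control replicates 1 and 2, and 18466 and 10804 CPM after IAA-Ala. It was 15746 and 16553 CPM after IPA-Ala and 24770 and 14748 CPM after IBA-Ala. The set thus held 0.321% and 0.345% of the counts in the control libraries and between 1.08% and 2.48% in the treated libraries. Replicate 1 of IBA-Ala was the highest and replicate 2 of IAA-Ala the lowest of the treated libraries. The replicates of IPA-Ala lay close to each other, and those of IAA-Ala and IBA-Ala did not.

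This unevenness ran through nearly the whole set. After IAA-Ala, 173 of the 182 genes were higher in replicate 1 than in replicate 2 (95.1%), against 47.3% of the 22191 genes with enough counts. After IBA-Ala the same held for 167 genes (91.8%), against 54.1% of those genes. In both groups together, 159 genes had the higher value in replicate 1 (87.4%, against 27.5%). The control and IPA-Ala showed no such tilt, with 103 genes (56.6%, against 57.6%) and 99 genes (54.4%, against 44.5%). The median ratio of replicate 1 to replicate 2 over the set was 1.68 for IAA-Ala, 1.81 for IBA-Ala, 1.03 for IPA-Ala and 1.07 for the control. On the log2 scale this is a median of 0.75 and 0.86 for IAA-Ala and IBA-Ala in the set, whereas the medians over the 22191 genes were -0.02 and 0.04. Scaling by TMM or by DESeq2 size factors left these counts at 173 and 174 for IAA-Ala and at 166 and 166 for IBA-Ala. The replicates differed at least 1.5 times in 116 genes of the set after IAA-Ala (63.7%, against 17% of the 22191 genes) and in 127 genes after IBA-Ala (69.8%, against 15.6%). After IPA-Ala such a gap was found in 53 genes (29.1%, against 15.5%), and in the control in 68 genes (37.4%, against 32.7%). Over the 182 genes, the log2 differences between the replicates of IAA-Ala and of IBA-Ala had a Pearson's r of 0.39 and a Spearman's rho of 0.36, against an r of 0.188 over the 22191 genes. For the control and IBA-Ala they were 0.34 and 0.31 (r of 0.233 over the 22191 genes), and for IPA-Ala r was 0.17 with IAA-Ala and 0.18 with IBA-Ala (-0.198 and -0.129). These are genes of the same libraries and not independent points. The part of these replicate differences in the comparisons that follow was not tested beyond leaving out each library in turn.

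**Figure D1:**
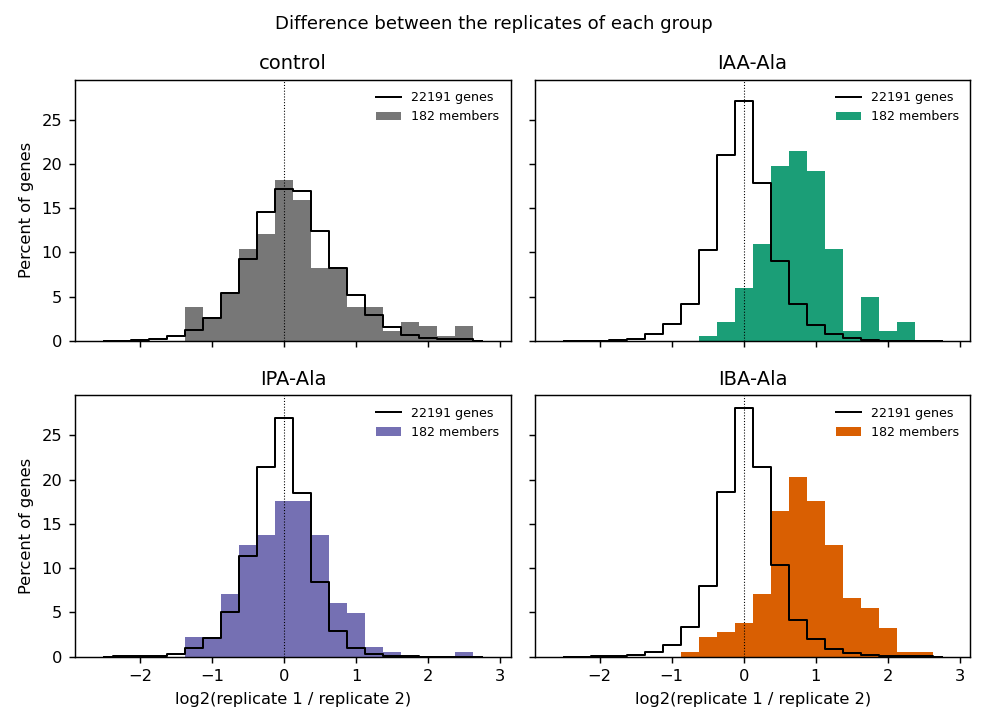
Difference between replicate 1 and replicate 2 of each group on the log2 scale (x axis), as the percent of genes in each interval (y axis), for the 182 genes of the set (filled bars) and the 22191 genes with at least 20 counts in each treated library (black line). The bars lie to the right of the line after IAA-Ala (median 0.75) and IBA-Ala (median 0.86), and follow it more closely in the control (0.09) and after IPA-Ala (0.05).

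Compared with the mean of the controls, the mean of the 6 treated libraries was 5.77 times higher in the median gene of the set, with a range from 2.67 to 58.4. It was more than 10 times higher in 34 genes, more than 20 times in 9 genes and less than 4 times in 49 genes. The rule allowed 0.838% of the 22191 genes to enter, the 4 named auxin genes included. The looser condition that all treated libraries lay above both controls, with no minimum ratio, was met by 8.56% of these genes, and the reverse, all below both controls, by 6.37%. The mirrored rule, with the lower control at least 2 times the highest treated value, was met by 14 of 23120 genes with at least 20 counts in both controls (0.0606%). In the control the set was read at low levels, with a median of 5.76 CPM (range 0.199 to 227), and 33 genes had a mean below 1 CPM. Control replicate 2 had 0 counts for 3 genes, and the 3 counts that a count of 0 allows correspond to 0.154 to 0.181 CPM in these libraries, for counting error only. The treated mean had a median of 37.3 CPM (range 1.85 to 853).

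Set beside each other, the means after the conjugates were 4.56 (IAA-Ala), 5.03 (IPA-Ala) and 6.54 times (IBA-Ala) the control mean in the median gene. The ranges were 2.42 to 47.2 for IAA-Ala, 2.27 to 38.6 for IPA-Ala and 2.49 to 99.3 for IBA-Ala. These ratios share the 2 control libraries. The mean after IBA-Ala was the highest of the 3 conjugates in 121 genes (66.5%, against 38.7% of the 22191 genes), that after IPA-Ala in 33 (18.1%, against 27.8%) and that after IAA-Ala in 28 (15.4%, against 33.5%). The lowest mean was that after IAA-Ala in 103 genes (56.6%, against 47.8%), that after IPA-Ala in 61 (33.5%, against 24.7%) and that after IBA-Ala in 18 (9.89%, against 27.5%). The count of genes highest after IBA-Ala fell to 55 without replicate 1 of IBA-Ala and was 147 without replicate 2. When any of the other treated libraries was left out, it lay between 101 and 133. For this count, the shares of all genes with a library left out were not taken. Replicate 1 of IBA-Ala was the highest treated library in 125 genes (68.7%, against 26.7%), and replicate 2 of IAA-Ala the lowest in 113 genes (62.1%, against 18.5%).

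**Figure D2:**
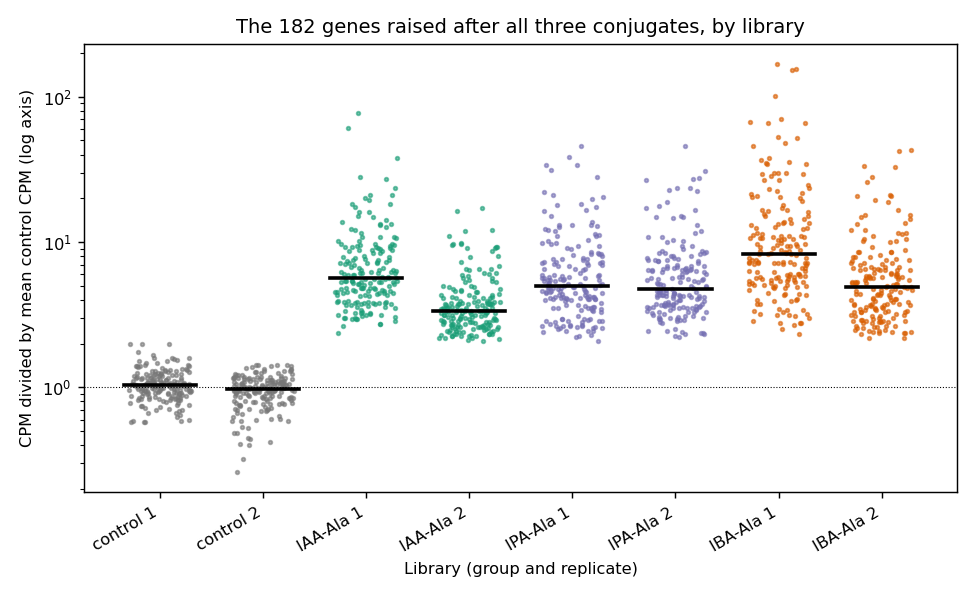
CPM of each of the 182 genes divided by its mean CPM in the 2 controls (y axis, log scale), for the 8 libraries (x axis). Each point is 1 gene, the thick line is the median of the library, the dotted line marks the control mean, and the 3 values at 0 counts in control replicate 2 are not drawn. All treated points lie above 2, as the rule requires, and the treated median is highest in replicate 1 of IBA-Ala and lowest in replicate 2 of IAA-Ala.

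The widest gaps between treated and control libraries were found in 6 genes that are given here with every library, replicate 1 before replicate 2. BraA01g018560.3C, on A01, had 0.912 and 0.421 CPM in control seedlings, 40.3 and 10.9 with IAA-Ala, 25.5 and 18.2 with IPA-Ala, and 102 and 28.3 with IBA-Ala. Its lowest treated value was 11.9 times the higher control, the largest ratio of the set, and the means were 38.4 (IAA-Ala), 32.8 (IPA-Ala) and 97.5 times (IBA-Ala) the control mean. BraA09g031610.3C, on A09, had 7 and 1 counts in the control (0.399 and 0.0602 CPM). After IAA-Ala it was at 17.7 and 3.96 CPM, after IPA-Ala at 7.74 and 5.38, and after IBA-Ala at 35.7 and 9.92. Both genes were more than 3 times higher in replicate 1 than in replicate 2 after IAA-Ala and after IBA-Ala, while the IPA-Ala replicates lay between those of IAA-Ala and below both of IBA-Ala.

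BraA07g016850.3C, on A07, was measured at 0.285 and 0.181 CPM in control seedlings, from 5 and 3 counts. It reached 4.25 and 2.24 CPM after IAA-Ala, 4.91 and 5.27 with IPA-Ala, and 15.6 and 6.52 with IBA-Ala. In this gene both IBA-Ala libraries were above both IPA-Ala libraries, which were above both IAA-Ala libraries. Such an order with no overlap was found in 7 genes of the set (3.85%, against 6.68% of the 22191 genes). BraA04g028460.3C, on A04, stood at 2.68 and 1.81 CPM in control seedlings, 45.0 and 20.6 with IAA-Ala, 27.4 and 33.2 with IPA-Ala, and 66.7 and 22.8 with IBA-Ala. Here the 3 conjugates overlapped, and replicate 2 of IAA-Ala was the lowest treated library, at 7.70 times the higher control.

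BraA06g042860.3C, on A06, combined a large ratio with many reads. Its levels were 22.4 and 25.2 CPM in control seedlings, 313 and 174 with IAA-Ala, 263 and 259 with IPA-Ala, and 482 and 270 with IBA-Ala. The IPA-Ala replicates were nearly equal (261 ± 2.68 CPM, SD, n = 2), whereas those of IBA-Ala were far apart (376 ± 150 CPM). BraA05g012140.3C, on A05, had 0.342 and 0.722 CPM in control seedlings, 14.9 and 6.30 with IAA-Ala, 9.29 and 4.98 with IPA-Ala, and 10.9 and 11.3 with IBA-Ala. It was one of the 15 genes that were not higher in replicate 1 after IBA-Ala, and its treated values overlapped between the conjugates.

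**Figure D3:**
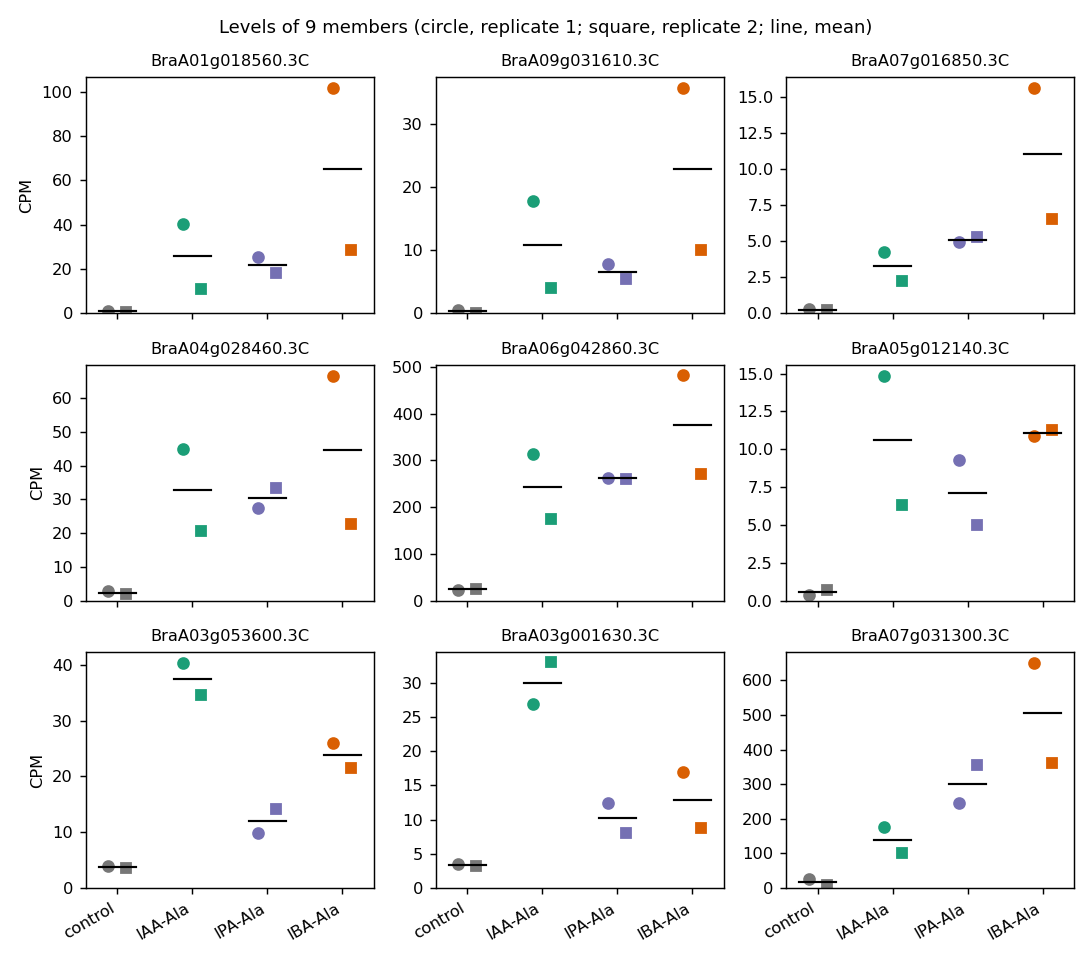
CPM (y axis, linear, its own range in each panel) of 9 genes of the set in the control and after each conjugate (x axis). Circles are replicate 1, squares replicate 2 and lines the mean of both. The first 6 panels hold the genes with the largest ratio of treated to control, in which IBA-Ala replicate 1 stands highest except in BraA05g012140.3C. The last 3 panels hold genes that passed the test between conjugates, where BraA03g053600.3C and BraA03g001630.3C are highest after IAA-Ala and BraA07g031300.3C after IBA-Ala.

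The 4 genes of the set with the most treated reads had lower ratios than the 6 genes above. Their lowest treated CPM was between 2.30 and 4.29 times the higher control. The median of this ratio over the set was 2.58, and the 4 genes lay on both sides of it. CPM is not corrected for gene length, so an order by CPM is one of reads and not of transcripts. BraA09g065840.3C, on A09, had 167 and 72.5 CPM in control seedlings, 716 and 412 with IAA-Ala, 959 and 934 with IPA-Ala, and 1324 and 773 with IBA-Ala. Its means were 4.72, 7.92 and 8.78 times the control mean, and both IPA-Ala libraries were above both IAA-Ala libraries. BraA03g007300.3C, on A03, was at 97.2 and 112 CPM in control seedlings, 782 and 480 with IAA-Ala, 624 and 653 with IPA-Ala, and 1017 and 551 with IBA-Ala. The conjugates overlapped in this gene, with means of 6.03, 6.11 and 7.496 times the control.

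BraA08g029330.3C, on A08, had 156 and 165 CPM in control seedlings, 716 and 431 with IAA-Ala, 476 and 659 with IPA-Ala, and 1138 and 664 with IBA-Ala. Both IBA-Ala libraries were above both IPA-Ala libraries, the lower by a small margin. BraA03g047450.3C, on A03, was the gene with the most reads in the control, at 158 and 295 CPM. It reached 1286 and 682 CPM after IAA-Ala, 793 and 679 with IPA-Ala, and 715 and 697 with IBA-Ala. Unlike most of the set it was highest after IAA-Ala, in replicate 1, and the other 5 treated libraries lay close together.

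At the threshold of the rule, the levels changed without a break. Just inside it, BraA07g041690.3C (A07) had 25.1 and 13.8 CPM in control seedlings, 84.3 and 50.3 with IAA-Ala, 81.9 and 144 with IPA-Ala, and 244 and 130 with IBA-Ala. BraA02g011840.3C (A02) had 142 and 154 CPM in control seedlings, 669 and 337 with IAA-Ala, 308 and 733 with IPA-Ala, and 869 and 615 with IBA-Ala. In each of them 1 low library, replicate 2 of IAA-Ala or replicate 1 of IPA-Ala, set the ratio, at 2.001 and 2.004. Just outside it, BraA03g003810.3C (A03) had 4.90 and 2.59 CPM in control seedlings, 11.9 and 9.79 with IAA-Ala, 14.5 and 18.9 with IPA-Ala, and 41.6 and 27.8 with IBA-Ala. BraA06g011390.3C (A06), with a ratio of 1.986, had 1.65 and 2.23 CPM in control seedlings, 7.12 and 7.87 with IAA-Ala, 4.85 and 4.52 with IPA-Ala, and 8.46 and 4.42 with IBA-Ala. These genes differ from members of the set only by where a threshold was placed, and with ratios of at least 1.5 or 3 the set would hold 393 or 65 genes.

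Among the 182 genes, the highest and the lowest treated library differed 2.76 times in the median gene, and between 1.36 and 16.5 times over all of them. They lay within 2 times of each other in 35 genes, more than 4 times apart in 47 and more than 8 times apart in 15. The genes at both ends were picked after their values were seen. BraA09g020370.3C, on A09, was the most even, with 10.1 and 16.5 CPM in control seedlings, 39.0 and 35.6 with IAA-Ala, 34.9 and 45.8 with IPA-Ala, and 33.6 and 37.5 with IBA-Ala. BraA05g014680.3C, on A05, was the least even, with 0.684 and 0.361 CPM in control seedlings, 11.0 and 5.001 with IAA-Ala, 17.6 and 2.08 with IPA-Ala, and 34.4 and 10.8 with IBA-Ala. In the even gene no conjugate stood apart from another, and in the uneven gene each conjugate had a replicate more than 2 times above the other.

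The conjugates were compared with each other in 3 pairs. The rule did not compare the conjugates, but it used the lowest treated CPM of each gene. Genes that stayed low after any conjugate were thus left out, and differences between conjugates in the set are not free of the rule. Shares of the set that passed or did not overlap are given beside those of all genes as a description. They cannot test whether the set differs from other genes. Each pair was tested over all genes with edgeR's quasi-likelihood test on 2 libraries per group, and p-values were adjusted over all genes tested by the Benjamini-Hochberg method, with a threshold of 0.05. With 2 replicates per group the p-values rest on the spread between these libraries. All 182 genes were tested in each pair. A difference is given as log2 of the ratio between the conjugates, with its standard error (SE).

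Between IBA-Ala and IPA-Ala, the butyryl and propionyl forms, 0 of the 182 genes passed the test (background 0%, 0 of 26940 genes). The difference nevertheless leaned to IBA-Ala in the set. Its median was 0.33 in the set and 0.00 over all genes tested, and 135 of the 182 genes (74.2%) were higher after IBA-Ala, against 50.4% of all genes. At an unadjusted p below 0.05 in edgeR, 38 genes of the set were higher (20.9%, against 3.55% of all genes) and 3 lower (1.65%, against 4.41%), or 22.5% against 7.97% together, and DESeq2 found 9 at an adjusted p below 0.05 (4.95%, against 0.575%). The 2 groups of libraries did not overlap, with IBA-Ala higher, in 48 genes (26.4%, against 21.3%), and with IPA-Ala higher in 6 (3.3%, against 17.4%). The size and sign of the median difference depended on replicate 1 of IBA-Ala. Without it the median difference was -0.12 (-0.02 over all genes) and 75 genes of the set were higher after IBA-Ala. Without replicate 2 the median was 0.62 (-0.01 over all genes) and 163 genes of the set were higher.

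BraA02g002870.3C, on A02, had the smallest p of the set in this pair. It had 7.35 and 9.57 CPM in control seedlings, 36.4 and 24.1 with IAA-Ala, 24.5 and 26.5 with IPA-Ala, and 51.0 and 43.8 with IBA-Ala. Both IBA-Ala libraries were the highest of all, and the difference between IBA-Ala and IPA-Ala was 0.87 (SE 0.18, adjusted p = 0.409 in edgeR). The differences over the set ranged from -0.71 to 1.76. The 95% interval included 0 in 141 genes and lay wholly within 1 log2 unit of 0 in 70 genes, so that for the others the interval still holds a difference of 2 times in at least 1 direction.

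Between IPA-Ala and IAA-Ala, 4 of the 182 genes passed the test (2.2%), against a background of 2.34% of 26762 genes. They went both ways, with 2 genes higher (1.1%, against 0.859% of all genes) and 2 lower after IPA-Ala (1.1%, against 1.48%). The median difference was 0.05 in the set and 0.02 over all genes, and 99 genes (54.4%, against 51.6%) were higher after IPA-Ala. At an unadjusted p below 0.05 in edgeR there were 39 genes of the set (21.4%, against 22.7%). Of these, 28 were higher after IPA-Ala (15.4%, against 11.1%) and 11 lower (6.04%, against 11.6%). Both IPA-Ala libraries were above both IAA-Ala libraries in 43 genes (23.6%, against 32.6%), and below them in 14 (7.69%, against 23.2%). Leaving out replicate 1 of IAA-Ala moved the median to 0.43, and leaving out replicate 2 moved it to -0.27. The test was then passed by 8 genes of the set (4.4%, against 0.463% of all genes) and by 18 (9.89%, against 3.58%). Without replicate 1 or replicate 2 of IPA-Ala the medians were -0.02 and 0.08. In one edgeR fit of all 8 libraries 0 genes of the set passed (against 0% of all genes). In DESeq2 15 genes passed (8.24%, against 5.19%).

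BraA03g053600.3C, on A03, had the smallest adjusted p of the set. It stood at 3.93 and 3.55 CPM in control seedlings, 40.4 and 34.6 with IAA-Ala, 9.93 and 14.1 with IPA-Ala, and 26.1 and 21.5 with IBA-Ala. The libraries of the 3 conjugates did not overlap, with IAA-Ala above IBA-Ala and IBA-Ala above IPA-Ala. It was lower after IPA-Ala than after IAA-Ala by a log2 difference of -1.73 (SE 0.22, adjusted p = 0.0312 in edgeR). BraA03g001630.3C, also on A03, had 3.53 and 3.19 CPM in control seedlings, 26.9 and 33.0 with IAA-Ala, 12.4 and 8.10 with IPA-Ala, and 16.9 and 8.74 with IBA-Ala. Both IAA-Ala libraries were above the other treated libraries, and the difference of IPA-Ala from IAA-Ala was -1.62 (SE 0.26, adjusted p = 0.0337 in edgeR).

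The 2 genes that were higher after IPA-Ala had an IBA-Ala replicate as their highest library. BraA08g021610.3C, on A08, had 0.456 and 0.903 CPM in control seedlings, 5.12 and 2.29 with IAA-Ala, 12.1 and 20.9 with IPA-Ala, and 25.7 and 9.81 with IBA-Ala. IPA-Ala exceeded IAA-Ala with no overlap, by 2.06 (SE 0.40, adjusted p = 0.0457 in edgeR), and overlapped with IBA-Ala. BraA02g043750.3C, on A02, was at 14.9 and 4.75 CPM in control seedlings, 68.0 and 36.6 with IAA-Ala, 180 and 128 with IPA-Ala, and 293 and 114 with IBA-Ala. Its control replicates differed by more than 3 times, the lowest treated library was 2.46 times the higher of them, and IPA-Ala exceeded IAA-Ala by 1.48 (SE 0.31, adjusted p = 0.0495 in edgeR).

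Between IBA-Ala and IAA-Ala, the butyryl and acetyl forms, 6 of the 182 genes passed the test (3.3%), against a background of 6.86% of 26952 genes. Of these, 5 were higher after IBA-Ala (2.75%, against 3.24% of all genes) and 1 was lower (0.549%, against 3.61%). At an unadjusted p below 0.05 in edgeR there were 52 genes (28.6%, against 27.2%). Of the set, 45 genes were then higher after IBA-Ala (24.7%, against 13.4%) and 7 lower (3.85%, against 13.8%). The median difference was 0.41 in the set and 0.02 over all genes, and 140 genes (76.9%) were higher after IBA-Ala, against 51.2% of all genes. With no overlap, IBA-Ala was above IAA-Ala in 54 genes (29.7%, against 35.7%) and below it in 8 (4.4%, against 25.2%). How these shares compare depends on the fit. In DESeq2, 28 genes of the set passed (15.4%, against 9.01% of 34532 genes). Its default filter on mean counts was on, and any genes it left without an adjusted p count as not passed. Such genes lower the share of all genes. In one edgeR fit of all 8 libraries 0 passed (against 0%). Both uneven groups enter this pair. The median was -0.01 without replicate 1 of IBA-Ala, 0.76 without replicate 2, 0.87 without replicate 1 of IAA-Ala and 0.06 without replicate 2. Whether genes of the set passed in edgeR also depended on which library was left out. The 95% interval of the difference included 0 in 130 genes and lay within 1 log2 unit of 0 in 40.

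BraA03g018550.3C, on A03, had 1.31 and 0.542 CPM in control seedlings, 4.92 and 5.68 with IAA-Ala, 9.01 and 8.74 with IPA-Ala, and 32.9 and 14.2 with IBA-Ala. The order of the conjugates had no overlap, and the difference of IBA-Ala from IAA-Ala was 2.05 (SE 0.40, adjusted p = 0.0339 in edgeR). BraA07g031300.3C, on A07, had 27.4 and 10.1 CPM in control seedlings, 177 and 100 with IAA-Ala, 246 and 354 with IPA-Ala, and 649 and 362 with IBA-Ala. It followed the same order, with the lower IBA-Ala library just above the higher IPA-Ala library, and the difference was 1.76 (SE 0.35, adjusted p = 0.0351 in edgeR).

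The other genes that passed in this pair were picked after their values were seen, BraA03g001630.3C excepted. BraA03g059850.3C, on A03, had 4.84 and 3.79 CPM in control seedlings, 30.8 and 15.1 with IAA-Ala, 23.2 and 51.4 with IPA-Ala, and 88.0 and 66.6 with IBA-Ala. Its IBA-Ala libraries stood above all others (difference from IAA-Ala 1.64, SE 0.33, adjusted p = 0.0354 in edgeR). BraA03g042380.3C, on A03 as well, was at 4.44 and 6.20 CPM in control seedlings, 20.9 and 22.2 with IAA-Ala, 25.5 and 36.6 with IPA-Ala, and 73.6 and 38.3 with IBA-Ala. The difference was 1.27 (SE 0.29, adjusted p = 0.0460 in edgeR), and replicate 2 of IBA-Ala was barely above the higher IPA-Ala library.

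BraA02g025510.3C, on A02, was measured at 0.968 and 0.421 CPM in control seedlings, 3.59 and 2.03 with IAA-Ala, 9.52 and 8.05 with IPA-Ala, and 24.2 and 7.98 with IBA-Ala. IBA-Ala exceeded IAA-Ala by 2.40 (SE 0.56, adjusted p = 0.0475 in edgeR) but overlapped with IPA-Ala. BraA03g001630.3C, highest after IAA-Ala, was the gene that was lower after IBA-Ala, with a difference of -1.32 (SE 0.30, adjusted p = 0.0444 in edgeR). It passed the test in both pairs with IAA-Ala.

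**Figure D4:**
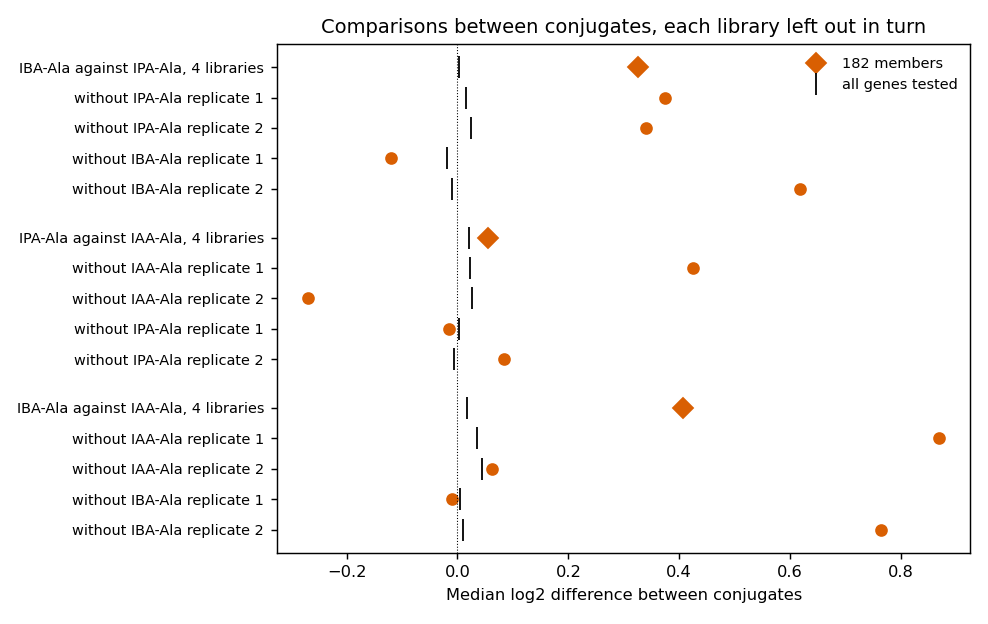
Median log2 difference between conjugates (x axis) over the 182 genes, for the 3 pairs with all 4 libraries (diamonds) and with each library left out in turn (circles), beside the median over all genes tested (vertical bars). The median of the set falls to -0.12 and -0.01 when replicate 1 of IBA-Ala is left out, and moves between -0.27 and 0.43 for IPA-Ala against IAA-Ala, while the bars stay near 0.

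The members were spread over all chromosome labels. Between 0.549% (A04, 8 genes) and 1.04% (A10, 18 genes) of the 22191 genes with enough counts belonged to the set on A01 to A10, and A03 held the most members, 29 of 3279 genes. Of the 24 such genes with the label Ann, 2 were members. Neighbouring identifiers formed 7 pairs with 14 members and no longer run. The pairs given in full were picked after their values were seen. In the pair BraA02g043360.3C and BraA02g043370.3C, replicate 1 was the higher after every conjugate and that of IBA-Ala the highest library. The former had 2.11 and 1.204 CPM in control seedlings, 17.5 and 7.81 with IAA-Ala, 16.4 and 5.90 with IPA-Ala, and 44.0 and 13.4 with IBA-Ala. The latter had 4.39 and 3.67 CPM in control seedlings, 24.6 and 10.5 with IAA-Ala, 34.6 and 14.8 with IPA-Ala, and 65.7 and 25.7 with IBA-Ala.

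The neighbours on A10 did not share a pattern. BraA10g029870.3C had 0.456 and 0 CPM in control seedlings, 8.61 and 2.76 with IAA-Ala, 10.5 and 5.38 with IPA-Ala, and 38.1 and 5.88 with IBA-Ala. Its neighbour BraA10g029880.3C had 0.798 and 1.38 CPM in control seedlings, 11.1 and 10.002 with IAA-Ala, 7.91 and 6.95 with IPA-Ala, and 7.98 and 5.72 with IBA-Ala. The former peaked in replicate 1 of IBA-Ala, and the latter was highest after IAA-Ala. Members that share stretches with a close copy elsewhere are uncertain, because the 2432970 to 2881490 reads of a library with more than 1 alignment were assigned to no gene.

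The auxin genes that the study names in its figures, 42 in all, give a set with known functions beside these members. Of the 12 that it shows as changed in these same libraries, and that are therefore no independent evidence of a direction, 10 were above both controls in all treated libraries and 4 met the rule. Of the other 30, only 12 had at least 20 counts in each treated library, 0 were above both controls in all treated libraries and 1 was below them in all. *YDK1* (BraA01g001510.3C), which encodes the GH3-type enzyme that joins auxin to amino acids, had the largest ratio of treated to control means among the 4. It was at 0.513 and 1.02 CPM in control seedlings, 128 and 101 with IAA-Ala, 4.56 and 30.0 with IPA-Ala, and 27.3 and 50.1 with IBA-Ala. Both IAA-Ala libraries were above all others, and replicate 1 was the lower after IPA-Ala and IBA-Ala.

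*IAA29* (BraA03g057220.3C), an Aux/IAA repressor, had 0.684 and 0.602 CPM in control seedlings, 22.9 and 12.5 with IAA-Ala, 4.16 and 8.05 with IPA-Ala, and 10.6 and 21.6 with IBA-Ala. In *YDK1* and *IAA29* replicate 1 of IBA-Ala was below replicate 2, as in 15 of the 182 members. *IAA2* (BraA03g040660.3C), of the same repressor family, had 5.81 and 3.37 CPM in control seedlings, 30.9 and 23.3 with IAA-Ala, 19.9 and 27.5 with IPA-Ala, and 39.7 and 36.4 with IBA-Ala. *YUC3* (BraA10g003150.3C), a flavin monooxygenase of auxin biosynthesis, had 1.88 and 1.14 CPM in control seedlings, 7.53 and 4.79 with IAA-Ala, 8.49 and 6.02 with IPA-Ala, and 8.78 and 5.61 with IBA-Ala. The conjugates overlapped in *YUC3*, and *IAA2* was highest in both IBA-Ala libraries.

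Between the conjugates the share of all these auxin genes together that passed edgeR's test lay near that of all genes, and it rests on few genes. In IBA-Ala against IPA-Ala it was 0 of 32 tested, and in IPA-Ala against IAA-Ala 1 of 33 (3.03%, against 2.34%). In IBA-Ala against IAA-Ala it was 2 of 33 (6.06%, against 6.86%). In DESeq2 1, 2 and 4 of the auxin genes passed in the same order, and 0.575%, 5.19% and 9.01% of all genes. *YDK1* was lower after IBA-Ala than after IAA-Ala by a log2 difference of -1.66 (SE 0.30, adjusted p = 0.0288 in edgeR). *UGT74E2* (BraA08g034260.3C), which encodes a glucosyltransferase of indole-3-butyric acid in *Arabidopsis*, had 15.6 and 10.4 CPM after IAA-Ala and 41.0 and 27.7 CPM after IBA-Ala, a difference of 1.30 (SE 0.27, adjusted p = 0.0403 in edgeR). A *SAUR*-like gene (BraA01g003520.3C) was read at 0.359 and 0.156 CPM after IAA-Ala and at 2.54 and 2.95 CPM after IPA-Ala, a difference of 3.29 (SE 0.62, adjusted p = 0.0428 in edgeR). The last of these had too few counts to be eligible for the set, and *UGT74E2* was more than 2 times the controls only in some of the treated libraries. Whether *YDK1* and *UGT74E2* passed in the pair of IBA-Ala and IAA-Ala depended on which library was left out. With a library left out, the difference of *YDK1* lay between -2.18 and -1.26 and that of *UGT74E2* between 1.02 and 1.63. The *SAUR*-like gene no longer passed in edgeR when any of the 4 libraries of its pair was left out (adjusted p from 0.0508 to 0.387), and 0 of the auxin genes passed in one fit of all 8 libraries.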

How the data were processed

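RNA-seq libraries of *B. rapa* seedlings, 2 per group, were grouped by the treatment in the labels. The authors clipped 9 bases of each read, aligned the reads with STAR 2.7.1a to the Chiifu genome and counted them by strand with HTSeq 1.99.2. The deposited values are raw counts per gene, without normalization. Reads on no gene, 15.9% to 19.3% of the uniquely aligned reads per library, were left out, and 3 tables of genes for single comparisons were not used. CPM was taken relative to the counts on genes, and log2 ratios of replicates had 0.5 counts added. The replicates differed by far more than sampling noise (chi-square per gene of 22.4 to 45.6), and each was counted as a separate sample.

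The conjugates were compared with edgeR 4.0.16 in R 4.3.3 on 4 libraries per pair (filterByExpr with a minimum count of 10 and total of 15, TMM, quasi-likelihood test, Benjamini-Hochberg adjustment), which was tested on simulated data. The members and lists were chosen with earlier results of these data known. The study's own figures gave the auxin genes, some by reading identifiers from a picture. Genes named are the 6 with the largest ratio of lowest treated to higher control CPM and the 4 with the most treated reads. Added to them are up to 2 per direction and pair with the smallest adjusted p, or 1 where none passed. Those just inside and outside the threshold and the auxin genes that met the rule are named too. Neighbouring runs longer than pairs were to be named, and none were found. Other genes were named after their values were seen, as stated. DESeq2 1.42.0, RLE normalization, no filter, an older form of edgeR's test, all 8 libraries in one fit, a replicate block and leaving out each library were tried. The fits in DESeq2 and with no filter covered more genes with low counts, which enter their shares of all genes. DESeq2's default filter on mean counts was on, and any genes it left without an adjusted p were counted as not passed. The rest was done in Python 3.11.15 (pandas 2.3.3, numpy 2.4.6, matplotlib 3.10.9).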

Additional observations from a re-analysis of the deposited data

Results flagged for a closer look

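The comparisons between conjugates held 4 genes of the set that passed edgeR's test for IPA-Ala against IAA-Ala and 6 for IBA-Ala against IAA-Ala. These results are listed because the test was made on the difference between 2 treatments itself. Their shares, 2.2% and 3.3%, stand against 2.34% and 6.86% of all genes. In one fit of all 8 libraries 0 of them passed, against 0% of all genes. The rule used the lowest treated library, so these shares are no test of the set against all genes. For IPA-Ala against IAA-Ala the log2 differences were 2.06 for BraA08g021610.3C, 1.48 for BraA02g043750.3C, -1.73 for BraA03g053600.3C and -1.62 for BraA03g001630.3C. For IBA-Ala against IAA-Ala they were 2.05 for BraA03g018550.3C, 1.76 for BraA07g031300.3C, 1.64 for BraA03g059850.3C, 1.27 for BraA03g042380.3C, 2.40 for BraA02g025510.3C and -1.32 for BraA03g001630.3C. Among the auxin genes outside the set they were 3.29 for the *SAUR*-like gene BraA01g003520.3C (IPA-Ala against IAA-Ala), and -1.66 for *YDK1* and 1.30 for *UGT74E2* (IBA-Ala against IAA-Ala). The groups hold 2 libraries each, too few to look for single outlying libraries by a fixed rule.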

How the results depend on the processing

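The set of 182 genes kept its size within 1.5 times under TMM scaling (188 genes), DESeq2 size factors (187), and minimum counts of 10 (200), 50 (161) or 1 (261). Its membership changed with the scaling, as 172 of the 182 members were kept under TMM scaling and 171 under DESeq2 size factors. The set held 393 genes with a ratio of at least 1.5 and 65 with a ratio of at least 3. Leaving out 1 library gave between 184 and 414 genes, with 414 and 340 without control replicates 1 and 2 and 298 without replicate 2 of IAA-Ala, and all 182 members were kept each time, since fewer libraries must meet the rule.

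The number of members that passed between IBA-Ala and IPA-Ala was 9 in DESeq2 (4.95%, against 0.575% of all genes), 0 to 16 when a library was left out, and 0 in the other fits. For IPA-Ala against IAA-Ala the 4 (2.2%, against 2.34%) became 15 in DESeq2 (8.24%, against 5.19%), 2 in the older form of edgeR's test (1.1%, against 1.11%), and 0 without a filter on low counts, in one fit of all 8 libraries and at an adjusted p below 0.01, and ranged from 0 to 18 when a library was left out. For IBA-Ala against IAA-Ala the 6 (3.3%, against 6.86%) became 28 (15.4%, against 9.01%), 3 (1.65%, against 5.61%), 0 (against 1.72%), 0 (against 0%) and 0 (against 0%) in the same order. Here too the number changed when a library was left out. Chosen after seeing the data were the older form of the test, the tests of the auxin genes, the medians with a library left out, and the alternatives for the counts of genes highest after IBA-Ala and of genes higher in replicate 1. With a library left out, the lone replicate is assumed to vary like the other group. RLE normalization gave 0, 3 and 6. The cause of these shifts was not tested.

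The replicate number as a block, which the labels share between groups without a stated meaning, gave 0, 7 and 74 members in the same 3 pairs (0%, 3.85% and 40.7%, against 0.00371%, 1.79% and 18.2% of all genes), and together with all 8 libraries in one fit 0, 0 and 2 (1.1%, against 0.0823%). The deviations of same-numbered libraries over the 22191 genes correlated at -0.129 for IBA-Ala and IPA-Ala, -0.198 for IAA-Ala and IPA-Ala and 0.188 for IAA-Ala and IBA-Ala, and over the members at 0.18, 0.17 and 0.39. Each pair of groups shares 2 numbers, too few to settle from the data whether they pair the libraries, and no pairing was assumed.

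In the 10 genes of the set that passed or came first in a pair, the libraries of the compared conjugates did not overlap. Leaving out 1 library could therefore not reverse a direction, and the other settings used the same counts. Over all settings the differences of these genes kept their direction. Among these values, 57 stayed on their side of the threshold, 74 no longer passed and 1 passed newly. For BraA03g053600.3C the adjusted p lay between 6.23e-07 and 0.387 over the alternatives. For BraA03g001630.3C it lay between 3.27e-05 and 0.387 for IPA-Ala against IAA-Ala and between 0.00128 and 0.135 for IBA-Ala against IAA-Ala. For *YDK1* it lay between 1.83e-06 and 0.137. The 2 replicates per group limit every comparison, and the median SE of a difference in the set was 0.31 to 0.35 on the log2 scale.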
